A study of Mus musculus with 2 samples.

Results

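The cells described here are Arg1 Nos2 macrophages, a group of colonic macrophages named for transcripts of the arginine-consuming enzymes arginase 1 and inducible nitric oxide synthase, which 131 of the 149 cells of the group held together. They were selected on measured values. A kept cell was a member when it held at least 1 unique molecular identifier (UMI, a tag that counts each captured RNA molecule once) of at least 3 of the 6 genes Arg1, Nos2, Ptges, Cxcl3, Slc7a2 and Egln3, at least 1 UMI of Csf1r and Cd14 together, and fewer than 20 UMIs of the neutrophil genes S100a8 and S100a9 together. Of 3173 kept cells, 149 were members. All 149 came from the 2443 kept cells of the IL-10R KO library, and 0 came from the 730 kept cells of the IL-10R/CerS2 DKO library.

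The study transplanted bone marrow of CD45.2 donors into CD45.1 recipients and sorted cells from the digested colon for droplet sequencing of RNA 3′ ends. Its methods name a sort on CD45, CD11b, CD11c and CD64, whereas its main text names CD45-positive immune cells. Lymphocytes, picked by T and B cell transcripts and lack of Csf1r and Cd14, were 459 of 2443 kept KO cells and 255 of 730 kept DKO cells. Donor marrow lacked the IL-10 receptor alone (IL-10R KO, made with Il10rb-deficient mice, here KO) or both the receptor and the ceramide synthase CerS2, which builds ceramides with very long fatty acids (IL-10R/CerS2 DKO, here DKO). Both groups therefore lacked IL-10 signalling in their blood-derived cells, and a group with an intact receptor was not analysed here. Donors were littermates and the chimeras shared cages. The recipients kept both genes in tissue that does not come from marrow, and the age and the number of mice behind each library were not given in the sources used here. With 1 library per genotype, genotype, mouse, sort and library cannot be told apart. No test was possible, and every interval below is a 95% interval for counting error only.

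Macrophages of the colon lining are renewed from blood monocytes, which normally mature into quiet, bacteria-clearing cells under the influence of IL-10. In inflamed or poorly perfused tissue, monocyte-derived cells instead meet low oxygen. Prolyl hydroxylases that mark hypoxia-inducible factor (HIF) for destruction then slow down, and HIF switches on glucose uptake, glycolysis and vessel growth factors. Arginase 1 splits arginine into ornithine and urea, whereas nitric oxide synthase 2 makes nitric oxide from the same substrate, and both are classical inducible products of activated macrophages.

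The 6 genes of the rule cover arginine use, prostaglandin synthesis, neutrophil recruitment and oxygen sensing. Since they chose the cells, their values are a description. Arg1 (GRCm38 chromosome 10, 24915221 to 24927484, minus strand) was found in 139 members, with 0 to 72 UMIs per cell and a median of 16. Nos2 (chromosome 11, 78920787 to 78960254, plus strand) was found in 141 members, with a median of 7 UMIs and a maximum of 38. Both enzymes were detected in the same cell in 131 of the 149 members, Arg1 without Nos2 in 8 and Nos2 without Arg1 in 10, so that 0 members lacked both.

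Slc7a2, the cationic amino acid transporter that brings arginine into macrophages, was found in 94 members with a median of 2 UMIs. Cxcl3, a chemokine that attracts neutrophils through CXCR2, was found in 116 members and ranged from 0 to 196 UMIs around a median of 13. Ptges, the inducible prostaglandin E synthase, was the least complete of the set with 68 positive members. Egln3, a HIF prolyl hydroxylase that is itself induced by HIF, was found in 86 members with at most 8 UMIs. The set was therefore carried by Arg1, Nos2 and Cxcl3, and the other genes were sparse.

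Since members were chosen for these transcripts, their share of them is a description. Members held 8.35% of the UMIs of all kept KO cells, but 93.6% of those of Arg1, 94.2% of Cxcl3, 90.9% of Ptges, 84.6% of Slc7a2, 76.0% of Egln3 and 74.9% of Nos2. Each gene was common in cells selected without it, but the genes of the rule were proposed from these same libraries. The shares that follow are therefore a description too, and no test of the rule. Of the 118 gated KO cells with at least 3 of the other 5 genes, 91.5% held Arg1, against 1.07% of the 1308 with none of the other 5. The same shares were 93.0% and 3.50% for Nos2, 75.2% and 2.19% for Cxcl3, and 43.0% and 0.995% for Ptges.

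The gates of the rule took out no candidate cell in either library. Within both gates (Csf1r or Cd14, and the limit on S100a8 and S100a9) there were 1653 KO and 355 DKO cells, and 0 KO cells with 3 or more rule genes lay outside them. Members made up 9.01% of gated KO cells (7.68 to 10.5%). In the DKO library 0 of 355 gated cells were members, which allows a share of up to 0.845%, and the KO share would have given 32.0 cells. Thinning every cell to 2000 UMIs before the rule was applied gave 108 of 1371 KO cells (7.88%) and 0 of 285 DKO cells, which allows up to 1.05%.

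Rule genes were sparse in DKO cells below the threshold as well. At least 1 rule gene was found in 359 gated KO cells (21.7%, 19.8 to 23.8%) and in 16 gated DKO cells (4.51%, 2.60 to 7.22%). Arg1 was detected in 11.0% of gated KO cells and in 1 gated DKO cell (0.282%). Nos2 was detected in 14.4% of gated KO cells and in 8 gated DKO cells (2.25%). In KO lymphocytes, which should lack these genes and had a median of 3159 UMIs, the share was 0.654% of 459 cells for Arg1 and 0 of 459 for Nos2 (up to 0.654%), and gated cells were deeper. Egln3 was the exception, with 3.49% positive lymphocytes against 7.14% of gated KO cells. The DKO cell that came nearest to the rule held 1 UMI each of Nos2 and Cxcl3, with 24 UMIs of Cd14.

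**Figure D1:**
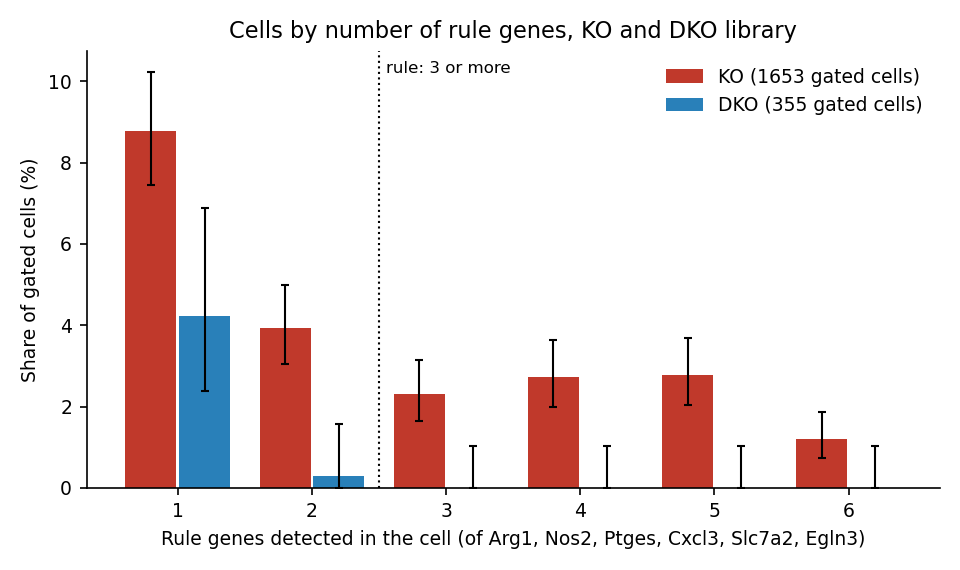
Share of gated cells in percent (y axis) by the number of rule genes detected in the cell (x axis, cells with 0 left off), for the 1653 KO cells in red and the 355 DKO cells in blue, with exact binomial 95% intervals. KO cells extend to all 6 genes (1.21%), whereas 4.23% of DKO cells had 1 gene, 0.282% had 2 and 0 had 3 or more.

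The label was checked against marker genes outside the rule, since Csf1r, the receptor for the macrophage growth factor CSF1 (found in 127 members), and Cd14, a lipopolysaccharide co-receptor (in all 149), were part of it. The 12 other monocyte and macrophage markers summed to 3657 CPM (counts per 1000000 UMIs of the summed cells) in members and 437 CPM in KO lymphocytes, which were picked for lack of Csf1r and Cd14. Single members ranged from 345 to 26471 CPM around a median of 2642 CPM, and the median lymphocyte was at 0. The same markers summed to 14656 CPM in the 1155 other Csf1r+ cells of the KO library, so most were low for a macrophage. Of 12 tested monocyte and macrophage markers outside the rule, 7 were at least 2-fold lower in members than in these cells, with a median log2 ratio of -1.81. Fcgr1, which encodes the CD64 that the study's methods name for the sort, stood at 25.1 CPM in members and 75.4 CPM in the other cells. All of C1qa, C1qb and C1qc were present in 32 members, and 0 members held both Ly6c2 and Vcan, markers of newly arrived monocytes. Of 7 monocyte markers, 1 was at least 2-fold higher and 4 were lower. The members thus held more transcripts of the macrophage markers than lymphocytes did, but fewer than the other Csf1r+ cells, and the name macrophage rests in part on the genes of the rule.

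Markers of other cells lay in both directions. Neutrophil markers outside the rule summed to 25.1 CPM in members and 72.0 CPM in the other cells, and the most S100a8 and S100a9 UMIs in any member was 2. B cell markers summed to 13.5 and 57.0 CPM, and the 3 tested epithelial markers were all at least 2-fold lower. Of the 4 fibroblast markers 0 reached 20 UMIs, and of the 9 mast cell and eosinophil markers, which summed to 28.9 and 16.4 CPM, 1 did.

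Dendritic cell markers summed to 390 CPM in members and 255 CPM in the other cells, and at least 1 of them was found in 55.7% and 40.2% of cells. Most of the members' sum was Ccr7, a homing receptor of migrating dendritic cells, with 311 UMIs in 43 members (299.9 against 181 CPM). Of 5 tested dendritic cell markers, 1 was at least 2-fold higher and 2 were at least 2-fold lower, and the median log2 ratio of -0.40 ran from -1.67 to 0.99 under other settings. The part of dendritic cells in the results was not tested.

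T cell markers moved with the members. They summed to 69.4 CPM against 26.7 CPM, and 5 of 6 tested were at least 2-fold higher, while 4 of the 149 members held a Cd3 transcript and 1 of them held 48.0% of the members' Cd3g UMIs. The part of T cells in the results was not tested. Leaving out cells with 2 or more UMIs of Cd3d, Cd3e, Cd3g, Cd79a, Cd79b and Ms4a1, a step chosen after the data were seen, removed 5 members and left 1 T cell marker with at least 20 UMIs, which was then at least 2-fold lower. The counts of genes at least 2-fold higher and lower, given next, became 717 and 1392.

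Members had a median of 6500 UMIs and 1884 detected genes, the other Csf1r+ KO cells 5628 UMIs and 1822 genes, and the 263 Csf1r+ DKO cells 5765 UMIs and 1826 genes. Median mitochondrial shares were 1.30%, 1.21% and 1.15%. Cers2 was found in 18.3% of kept KO cells (44.5 CPM) and with 2 UMIs among the kept DKO cells (0.588 CPM). Il10rb tags remained in both libraries at 5.96 and 4.12 CPM, but a 3′ tag does not show whether the deleted part is present. Only 1 barcode sequence occurred in both libraries, and it belonged to 0 members.

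Members were next set against the other Csf1r+ cells of their own library. Because the same cells and the same contrast served to choose them, the ratios describe the group and test nothing. Of 9314 genes with at least 20 UMIs over both groups, 700 (7.52%) were at least 2-fold higher in members and 1350 (14.5%) at least 2-fold lower, and the median log2 ratio over all genes was -0.19. Among the lower genes, 180 had 0 UMIs in the members, and with such genes set to the floor of 3 UMIs 1225 stayed at least 2-fold lower. Genes are grouped below by function, with the 10 genes of the rule left out of every list.

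**Figure D2:**
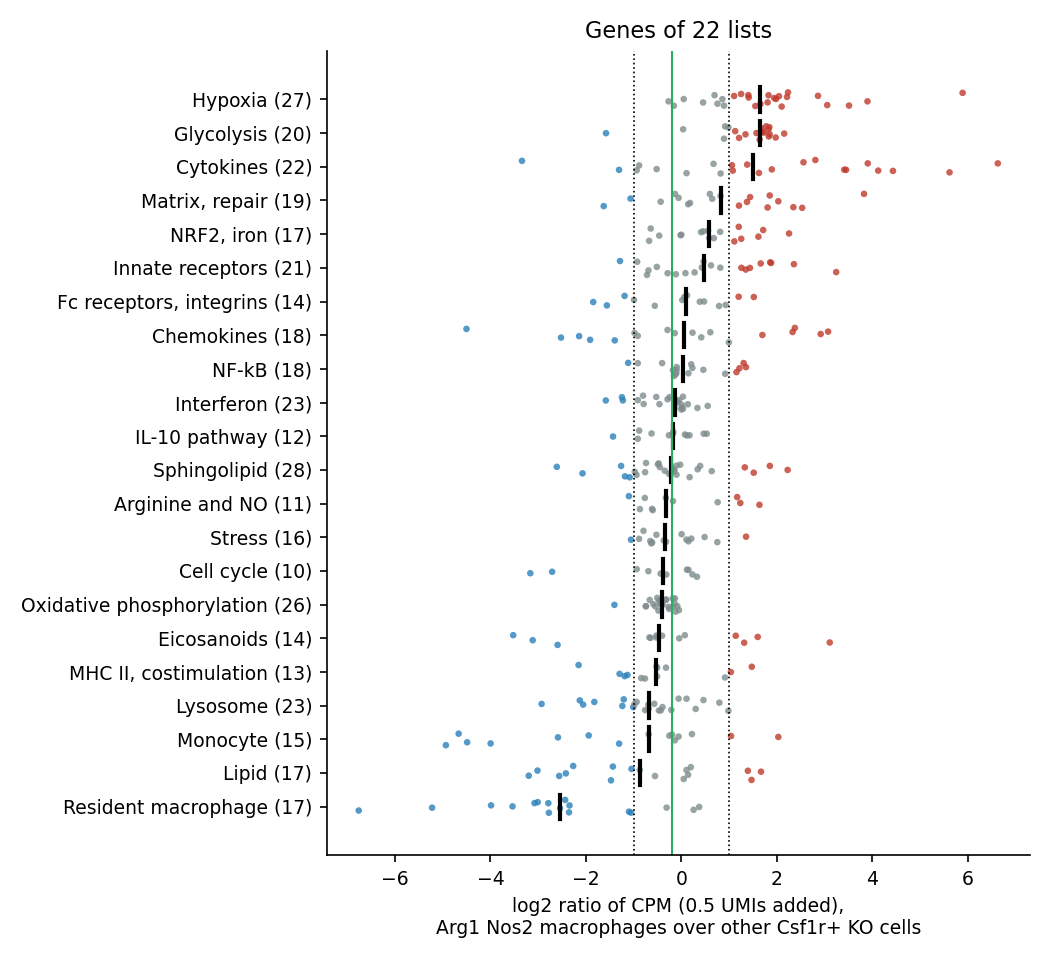
Log2 ratio of CPM (x axis) of the Arg1 Nos2 macrophages over the other Csf1r+ KO cells for each tested gene of 22 lists (y axis, number of genes in brackets). Black bars mark list medians, dotted lines the 2-fold limits, the green line the median of all genes (-0.19), red and blue points genes past 2-fold; the hypoxia and glycolysis lists sit highest and the resident macrophage list lowest.

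Most oxygen-regulated genes were higher in members. Of 27 tested hypoxia genes, 19 were at least 2-fold higher and 0 were at least 2-fold lower, with a median log2 ratio of 1.65 (all genes: 7.52% higher, 14.5% lower). The summed list stood at 11408 CPM in members, 3737 CPM in the other KO cells and 3116 CPM in the DKO cells. Single members ranged from 4128 to 31024 CPM around a median of 11527 CPM, while the medians of the other KO and DKO cells were 3219 and 2824 CPM. Even the lowest member was above both of these medians, although the ranges of single cells overlapped.

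The largest hypoxia ratio belonged to P4ha2, a collagen prolyl hydroxylase, with 40 UMIs in members, 4 in the other KO cells and 0 in the DKO cells (log2 ratio 5.89, 4.57 to 7.98). Ero1l, the oxidase that supports disulfide formation in the endoplasmic reticulum, stood at 769 CPM in members, 51.6 CPM in the other KO cells and 30.8 CPM in the DKO cells (log2 ratio 3.90, 3.71 to 4.08). Bnip3, a receptor for the removal of mitochondria, was at 461, 40.5 and 13.6 CPM (log2 ratio 3.51, 3.29 to 3.73). Members thus carried these transcripts at 10 or more times the level of their neighbours.

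Ndrg1, a stress-induced protein used widely as a hypoxia marker, was at 478 CPM in members and 57.6 CPM in the other KO cells. Hilpda, which blocks the breakdown of lipid droplets, was found in 98.0% of members and reached 1696 CPM against 361 CPM. Vegfa, the main growth factor for blood vessels, stood at 850 CPM against 243 CPM in KO and 190 CPM in DKO cells. Hif1a, which encodes the oxygen-regulated subunit of HIF, differed less (946 against 561 CPM, log2 ratio 0.75, 0.65 to 0.86). Plin2, a lipid droplet coat protein, was close to equal (714 against 691 CPM), so the list was not raised in every gene.

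Glucose use followed the same pattern. Of 20 tested glycolysis genes, 15 were at least 2-fold higher and 1 was lower, with a median log2 ratio of 1.65, and the summed list was at 12709, 4278 and 3756 CPM. Slc2a1, the glucose transporter GLUT1, stood at 284 CPM in members and 80.2 CPM in the other KO cells. Gapdh, the glyceraldehyde phosphate dehydrogenase, was at 3552, 1096 and 970 CPM in members, other KO and DKO cells. Ldha, which turns pyruvate into lactate, was at 1033 CPM against 324 CPM. The gene past 2-fold in the other direction was the glucose transporter Slc2a3, with 1 UMI in members (log2 ratio -1.58, -7.49 to 0.45).

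Genes of oxidative phosphorylation lay slightly the other way. All 26 had a ratio below 0, with a median of -0.41, but only Ndufa4 passed 2-fold (115 against 305 CPM, log2 ratio -1.40, -1.69 to -1.14). The direction did not hold for every gene under other settings. Ndufa1, Ndufb9 and Cox7a2 each went above 0 in 1 of them (up to 0.07, 0.03 and 0.17). The summed list was at 7444 CPM in members, 9533 CPM in the other KO cells and 8451 CPM in the DKO cells. Set against the median of all genes of -0.19, the shift of this list was small beside that of the glycolysis list.

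**Figure D3:**
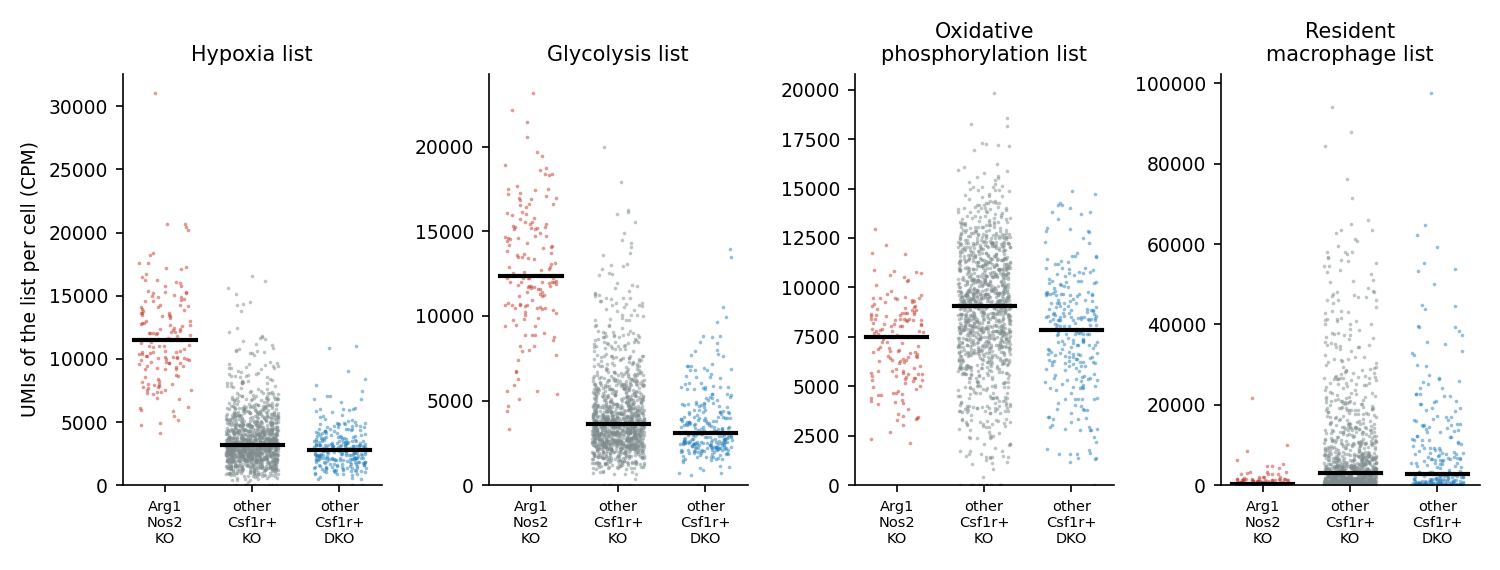
Summed level of 4 gene lists in single cells (y axis, CPM) for the 149 Arg1 Nos2 macrophages, the 1155 other Csf1r+ KO cells and the 263 other Csf1r+ DKO cells; each point is a cell and black bars are medians. Median hypoxia levels were 11527, 3219 and 2824 CPM and median resident macrophage levels 397, 3016 and 2818 CPM.

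Promoter sequences of the raised hypoxia genes were read because ACGTG is the core of the element that HIF binds. Each window covers 250 bases before to 50 after the start of a RefSeq transcript in GRCm38.p6. The 5 windows below are printed 5′ to 3′ on the gene's strand, and capitals mark every match of ACGTG or of GGNNTTTCC, a short form of the NF-kB site, on either strand. A palindromic CACGTG matches on both strands and counts as 2. Bnip3 (chr7:138909457-138909756, minus strand) and P4ha2 (chr11:54100674-54100973, plus strand) stand for the hypoxia list, Egln3 (chr12:54203825-54204124, minus strand) and Cxcl3 (chr5:90785851-90786150, plus strand) for the genes of the rule, and Il6 (chr5:30012864-30013163, plus strand) for the cytokines.
Bnip3: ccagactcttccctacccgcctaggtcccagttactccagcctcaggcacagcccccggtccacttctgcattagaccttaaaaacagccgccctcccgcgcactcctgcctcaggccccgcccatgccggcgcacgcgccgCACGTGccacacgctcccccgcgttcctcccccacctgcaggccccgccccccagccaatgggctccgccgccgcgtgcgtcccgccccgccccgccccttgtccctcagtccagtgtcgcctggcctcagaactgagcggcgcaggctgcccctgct
P4ha2: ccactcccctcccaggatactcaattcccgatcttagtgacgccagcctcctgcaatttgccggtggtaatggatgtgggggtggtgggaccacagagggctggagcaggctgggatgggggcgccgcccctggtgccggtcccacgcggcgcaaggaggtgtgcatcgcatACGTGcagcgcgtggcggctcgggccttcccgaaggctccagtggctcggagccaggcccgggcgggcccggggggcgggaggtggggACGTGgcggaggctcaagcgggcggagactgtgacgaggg
Egln3: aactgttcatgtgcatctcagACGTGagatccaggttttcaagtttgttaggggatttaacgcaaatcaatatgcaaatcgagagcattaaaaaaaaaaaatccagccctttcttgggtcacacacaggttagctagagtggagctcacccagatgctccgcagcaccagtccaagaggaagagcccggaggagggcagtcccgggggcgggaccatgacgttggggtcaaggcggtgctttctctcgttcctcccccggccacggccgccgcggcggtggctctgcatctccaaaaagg
Cxcl3: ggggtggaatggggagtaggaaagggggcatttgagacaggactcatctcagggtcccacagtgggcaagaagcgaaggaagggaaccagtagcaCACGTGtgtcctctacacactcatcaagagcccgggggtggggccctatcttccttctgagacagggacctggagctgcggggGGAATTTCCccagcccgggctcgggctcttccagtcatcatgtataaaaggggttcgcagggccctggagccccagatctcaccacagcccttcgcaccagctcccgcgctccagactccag
Il6: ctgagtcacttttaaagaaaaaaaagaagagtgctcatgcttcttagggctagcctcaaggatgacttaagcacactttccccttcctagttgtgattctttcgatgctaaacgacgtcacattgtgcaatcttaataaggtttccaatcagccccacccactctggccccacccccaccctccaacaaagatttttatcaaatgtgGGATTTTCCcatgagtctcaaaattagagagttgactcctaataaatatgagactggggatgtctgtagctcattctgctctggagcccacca

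Bnip3, P4ha2 and Cxcl3 held 2 matches of ACGTG each and Egln3 held 1, whereas Il6 held 0. Cxcl3 and Il6 held 1 match each of GGNNTTTCC. Over all raised hypoxia genes, 14 of the 16 with a window in the table matched, or 15 of 21 windows (71.4%), against 19.6% of all 32851 windows. For the raised glycolysis genes 12 of 23 windows matched (52.2%), for the oxidative phosphorylation list 6 of 18 (33.3%), and for the raised cytokines 0 of 10. GGNNTTTCC was found in 0 windows of the raised hypoxia and glycolysis genes, in 3 of 10 windows of the raised cytokines and in 5.82% of all windows. ACGTG holds a CpG, and the windows differed in CpG content, with medians of 25 CpGs for hypoxia, 21 for glycolysis, 18 for oxidative phosphorylation and 7 for both cytokine and all windows. The hypoxia list was made of oxygen-regulated genes, and no share was computed for its genes that were not raised. The shares thus describe the lists, and HIF activity in the members was not tested. A match describes the letters and not a bound site. Of the 6 genes of the rule, 3 (Cxcl3, Egln3 and Ptges) had a window.

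Secreted mediators formed the second large group. Of 22 tested cytokines, 14 were at least 2-fold higher and 2 were at least 2-fold lower, with a median log2 ratio of 1.50, and the summed list was at 14701 CPM in members, 4989 CPM in the other KO cells and 4042 CPM in the DKO cells. Inhba, the subunit of activin A, was detected in 98.0% of members with a median of 16 UMIs per cell. Its level was 2682 CPM in members, 246 CPM in the other KO cells and 115 CPM in the DKO cells (log2 ratio 3.45, 3.36 to 3.54). Il1a, an alarm cytokine of the interleukin-1 family, was at 1138, 52.8 and 19.1 CPM (log2 ratio 4.43, 4.26 to 4.60). Members held 56.6% of the Inhba UMIs and 70.4% of the Il1a UMIs of all kept KO cells.

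Il1b, the other agonist of the interleukin-1 receptor, was abundant everywhere and differed less (7330, 2825 and 2520 CPM, log2 ratio 1.38). Its natural antagonist Il1rn was at 2090 CPM in members and 1184 CPM in the other KO cells, under the 2-fold limit. Il18, a further family member, was lower, with 2 UMIs in members (log2 ratio -3.34, -6.72 to -1.78). The family was thus not moved as a whole.

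Il6, Il23a, Csf3 and Lif, which drive T cell, neutrophil and stromal responses, were high but patchy. Il6 was found in 36 members and stood at 164 CPM against 9.38 CPM (log2 ratio 4.12, 3.70 to 4.56). Il23a, the p19 subunit of interleukin-23, was found in 40 members and stood at 318 CPM against 21.3 CPM, with 18.2% of its UMIs in 1 member. Csf3, the granulocyte growth factor, had 37 UMIs in members, 37.8% of them in 1 cell, and Lif had 33, of which 42.4% were in 1 cell. Il12b, the subunit that interleukin-23 shares with interleukin-12, was found in 2 members. In Csf1r+ cells outside the members, the Il6 level of 9.38 CPM in KO had an interval of 7.23 to 12.0 and that of 18.5 CPM in DKO one of 12.5 to 26.4. For Il23a the KO level of 21.3 CPM had an interval of 17.9 to 25.02 and the DKO level of 56.7 CPM one of 45.7 to 69.5. The DKO levels rested on few cells: Il6 was found in 18 with 73.3% of its UMIs in 10 of them, and Il23a in 14 with 95.7% in 10. At 2000 UMIs per cell the share with Il6 was 1.50% in KO (0.858 to 2.42%) and 4.10% in DKO (1.98 to 7.41%). The share with Il23a was 1.59% in KO (0.929 to 2.53%) and 2.05% in DKO (0.669 to 4.72%). Both pairs of intervals overlapped, and with 1 library per genotype no direction is given for these cells.

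Chemokines lay in both directions. Of 18 tested, 5 were at least 2-fold higher and 5 at least 2-fold lower, with a median log2 ratio of 0.05 that went from -0.16 to 0.36 under other settings. The neutrophil chemokine Cxcl2 was at 12760 CPM in members, 1519 CPM in the other KO cells and 1354 CPM in the DKO cells, with 0 to 838 UMIs per member and a median of 30. Cxcl1 stood at 512 CPM against 102 CPM and the inflammatory chemokine Ccl3 at 542 against 71.9 CPM. Cxcl1 was found in 32 members and Ccl3 in 56, with 73.1% and 61.6% of their UMIs in 10 members. Ccl8, by contrast, was at 14.5 CPM against 339 CPM (log2 ratio -4.50, -5.39 to -3.82) and Ccl6 at 98.4 against 568 CPM. For Ccl24, also among the higher genes, 73.8% of the UMIs came from 1 member.

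Inducible enzymes upstream of the rule gene Ptges were also higher. Ptgs2, the inducible cyclooxygenase, was at 1874 CPM in members, 218 CPM in the other KO cells and 140 CPM in the DKO cells (log2 ratio 3.11, 3.01 to 3.20). Pla2g4a, the phospholipase that frees arachidonic acid, was at 113 against 37.4 CPM. Ptgs1, the constitutive cyclooxygenase, had 1 UMI in members (log2 ratio -3.52, -9.42 to -1.60), and Hpgds, which makes prostaglandin D, had 5 (log2 ratio -2.59, -4.37 to -1.48). Of the 14 tested eicosanoid genes, 4 were higher and 3 lower (28.6% and 21.4%, against 7.52% and 14.5% of all genes). The median log2 ratio of the list was -0.47, and 9 of the 14 lay below 0, so the list was not raised as a whole.

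Around the arginine enzymes, 3 of 11 further genes were at least 2-fold higher and 1 was lower (27.3% and 9.09%, all genes 7.52% and 14.5%). The median log2 ratio was -0.33, and 7 of the 11 lay below 0. Among these 7, Asl, Pts and Spr had log2 ratios of -0.18, -0.60 and -0.77. Ass1, which with Asl regenerates arginine from citrulline, was at 1122 CPM against 362 CPM. Gch1, the first enzyme in the synthesis of the nitric oxide synthase cofactor tetrahydrobiopterin, was at 342 against 146 CPM, and Arg2, the mitochondrial arginase, at 345 against 154 CPM. Odc1, which passes ornithine on to polyamines, was not raised (417 against 523 CPM). The spermidine synthase Srm, with 4 UMIs in members, was the lower gene.

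Sets of matrix, innate receptor and redox genes were raised in part. Of 19 matrix and repair genes, 9 were at least 2-fold higher and 2 lower (47.4% and 10.5%, all genes 7.52% and 14.5%, median 0.82). Mmp12, the macrophage elastase, reached 3245 CPM in members, 229 CPM in the other KO cells and 163 CPM in the DKO cells (log2 ratio 3.82, 3.74 to 3.91). Spp1, osteopontin, reached 527 CPM against 91.4 CPM, but was found in 44 members with 71.8% of its UMIs in 10 of them. Of 21 innate receptors and their adaptors, 8 were higher and 1 lower (38.1% and 4.76%, median 0.46). The formyl peptide receptor Fpr1 led them with 39 UMIs (log2 ratio 3.24), found in 24 members with 64.1% in 10 of them. Trem1, an amplifier of inflammatory signals, was at 340 against 66.6 CPM. Of 17 NRF2 and iron genes, 6 (35.3%) were higher and 0 lower (median 0.58). Slc7a11, the cystine importer, was found in all 149 members (1068 against 224 CPM), and Fth1, the ferritin heavy chain, alone made up 87820 CPM of members and 28743 CPM of the other KO cells.

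Other signalling lists had medians close to 0. Of 18 NF-kB genes, 4 were higher, among them the inhibitor Nfkbia (1099 against 495 CPM), and 1 was lower (median 0.02). These are 22.2% and 5.56% of the list, against 7.52% and 14.5% of all genes. Rel, the NF-kB subunit c-Rel, was close to equal (650 against 725 CPM, log2 ratio -0.16, -0.28 to -0.04). Of 23 interferon-induced genes, 0 were higher and 3 lower (median -0.14). Of 12 genes of the IL-10 pathway, 0 were higher and 1 lower (median -0.17).

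The genes outside the rule with the largest ratios, among those with at least 100 UMIs over both groups and found in at least 10% of members, led with F3, tissue factor, the starter of blood coagulation. F3 was at 98.4 CPM in members, 2.20 CPM in the other KO cells and 2.46 CPM in the DKO cells (log2 ratio 5.44, 4.69 to 6.37). Only 30 of the 149 members held it, and 69.6% of its UMIs in members came from 10 cells. Tmem119, best known as a microglia marker, followed with a log2 ratio of 4.71. Tnfrsf9, the costimulatory receptor CD137, stood at 344, 15.3 and 4.93 CPM (log2 ratio 4.49, 4.18 to 4.83). The remaining 12 were Il1a, Carmil1, Pdpn, Il6, Il23a, Ero1l, Mmp12, Slpi, Lig1, Bnip3, Inhba and AA467197, with log2 ratios from 3.38 to 4.43. Slpi, an inhibitor of leukocyte proteases, stood at 2696 CPM in members against 193 CPM in KO and 165 CPM in DKO cells.

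Transcripts of the resident macrophage were low. Of 17 tested resident and tolerogenic genes, 14 were at least 2-fold lower and 0 higher, with a median log2 ratio of -2.54 (13 genes and -2.44 with genes at 0 UMIs set to 3), and the summed list was at 1260, 9593 and 9833 CPM. Apoe, the lipid carrier apolipoprotein E, stood at 421 CPM in members, 4899 CPM in the other KO cells and 4472 CPM in the DKO cells (log2 ratio -3.54, -3.68 to -3.40), and 40.7% of the members' Apoe UMIs came from 1 cell. C1qa, a chain of the first complement component, was at 187 against 1296 CPM. Selenop, which encodes selenoprotein P, had 10 UMIs in all members (log2 ratio -3.99, -5.12 to -3.17) and Pltp, a phospholipid transfer protein, had 3 (log2 ratio -5.22, -7.72 to -3.89). Mertk, a receptor for dying cells, was not lower (10.6 against 8.51 CPM, log2 ratio 0.37, -0.76 to 1.26).

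The 15 lowest genes chosen by the same limits on UMIs and cells started with Mgl2, the lectin CD301b, which had 0 UMIs in members and 264 in the other KO cells, at least 13.4-fold lower when 3 UMIs are allowed for the 0. Dnase1l3, a secreted nuclease, had 2 UMIs (log2 ratio -5.97, -9.34 to -4.44). Tmem176b and Tmem176a, a pair of cation channel genes, had 11 and 10 UMIs (log2 ratios -4.48 and -4.28). Others among them were Gbp2b, Pltp, Ifitm6, Frmd4b, Plxnc1, Hebp1, Sirpb1b, Selenop, Lrmp and Cyp27a1, all with 10 or fewer UMIs in the 149 members.

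**Figure D4:**
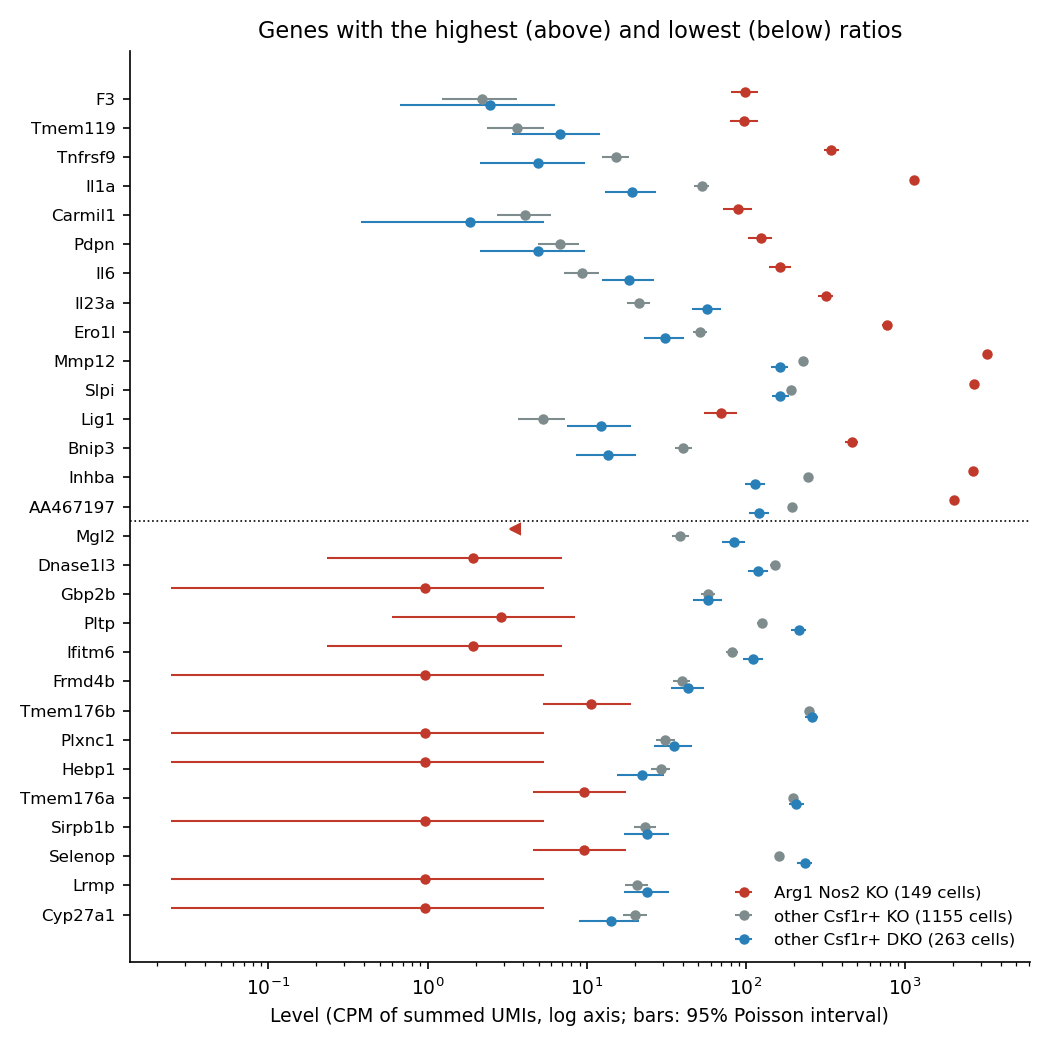
Levels in CPM (x axis, log) of the 15 genes with the highest and 14 of the 15 with the lowest log2 ratio among genes with at least 100 UMIs found in at least 10% of the higher group, in Arg1 Nos2 macrophages, other Csf1r+ KO and other Csf1r+ DKO cells; bars are 95% Poisson intervals and the triangle is the upper bound for 0 UMIs. For every gene shown, the interval of the members lies apart from those of both other sets, from F3 (98.4, 2.20 and 2.46 CPM) to Mgl2 at 0 UMIs in members.

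Lysosomal, monocyte and lipid genes were lower in part. Of 23 lysosome genes, 7 (30.4%) were at least 2-fold lower and 0 higher (median -0.69), against 14.5% and 7.52% of all genes. With cells thinned to 2000 UMIs, 4 of 20 tested lysosome genes were lower. Among the 7 was Lyz2, lysozyme, at 802 CPM in members, 3348 CPM in the other KO cells and 5581 CPM in the DKO cells. Lgmn, the protease legumain, was at 71.4 against 547 CPM. Of 15 monocyte genes, 7 were lower and 2 higher (46.7% and 13.3%, all genes 14.5% and 7.52%, median -0.69). Ccr2, the receptor that brings monocytes out of the bone marrow, was at 33.8 against 206 CPM, whereas Fn1, fibronectin, was at 424 against 104 CPM.

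In lipid metabolism 8 of 17 genes were lower and 3 higher (47.1% and 17.6%, all genes 14.5% and 7.52%, median -0.87). Cd36, a fatty acid and lipoprotein receptor, had 6 UMIs in members (5.79 against 57.5 CPM in KO and 126 CPM in DKO cells), and Fabp5, a fatty acid carrier, was at 58.8 against 350 CPM. Abca1, which exports cholesterol, was higher at 454 against 164 CPM. Of 28 sphingolipid genes, 4 were at least 2-fold higher and 5 lower (14.3% and 17.9%, all genes 7.52% and 14.5%, median -0.23). Sphk1, which makes sphingosine 1-phosphate, had 24 UMIs in members (23.1 against 4.99 CPM). It was found in 15 members, with 79.2% of these UMIs in 10 of them. Cers6, a ceramide synthase, was at 46.3 against 106 CPM. Cers2, which the KO cells retain, was at 56.9 CPM in members (43.3 to 73.4) and 45.3 CPM in the other cells (40.4 to 50.7), a difference whose interval included 0 (log2 ratio 0.34, -0.10 to 0.73).

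Antigen presentation and adhesion were mixed. Of 13 MHC class II and costimulatory genes, 2 were higher and 4 lower (15.4% and 30.8%, all genes 7.52% and 14.5%, median -0.52). H2-Ab1, a class II chain, was at 5711 against 7149 CPM, and Cd86, a ligand of CD28, at 135 against 297 CPM, while Cd274, which encodes PD-L1, was at 711 against 347 CPM. Of 14 Fc receptor and integrin genes, 2 were higher, among them Itgam, which encodes CD11b (263 against 115 CPM), and 3 were lower (median 0.09).

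Narrower comparisons used cells nearer to either end of monocyte maturation. Against the 513 Csf1r+ KO cells with all 3 C1q genes, 20 hypoxia genes were at least 2-fold higher and 0 lower (median 1.85), and 14 resident genes were lower (median -3.43). These cells were chosen for C1q, which is part of the resident list. Against the 78 Csf1r+ KO cells with Ly6c2 and Vcan, 17 hypoxia genes were higher and 0 lower (median 1.92) and 18 cytokines higher (median 3.05). The summed resident list was about equal in the members and these 78 cells (1260 and 1252 CPM), in which 7 of its 22 genes had 0 UMIs, so no direction is given for its genes. The hypoxia list was thus higher in members against either kind of cell, whereas the resident list was lower against the C1q cells and not against the Ly6c2 and Vcan cells.

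Levels of the lists went with the number of rule genes. That number chose the members, so these levels are a description and no test of the threshold. In KO cells within the gates with 0, 1, 2 and 3 rule genes the hypoxia list stood at 3349, 4343, 7875 and 9868 CPM, and in those with 4, 5 and 6 at 11205, 11906 and 13521 CPM. The resident list was at 8790, 7562, 4374 and 1540 CPM in cells with 0 to 3 genes, so that its largest step as a ratio lay at the threshold, and at 1118, 1442 and 599 CPM in those with 4 to 6. Between 2 and 3 genes Apoe went from 2156 to 476 CPM and Slpi from 649 to 2689 CPM. The 38 members with exactly 3 genes and the 65 cells with exactly 2 had medians of 6354 and 6016 UMIs. Depth rose with the number of genes, from a median of 5266.5 UMIs with 0 to 6625.5 with 6, and its part in these levels was not tested.

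**Figure D5:**
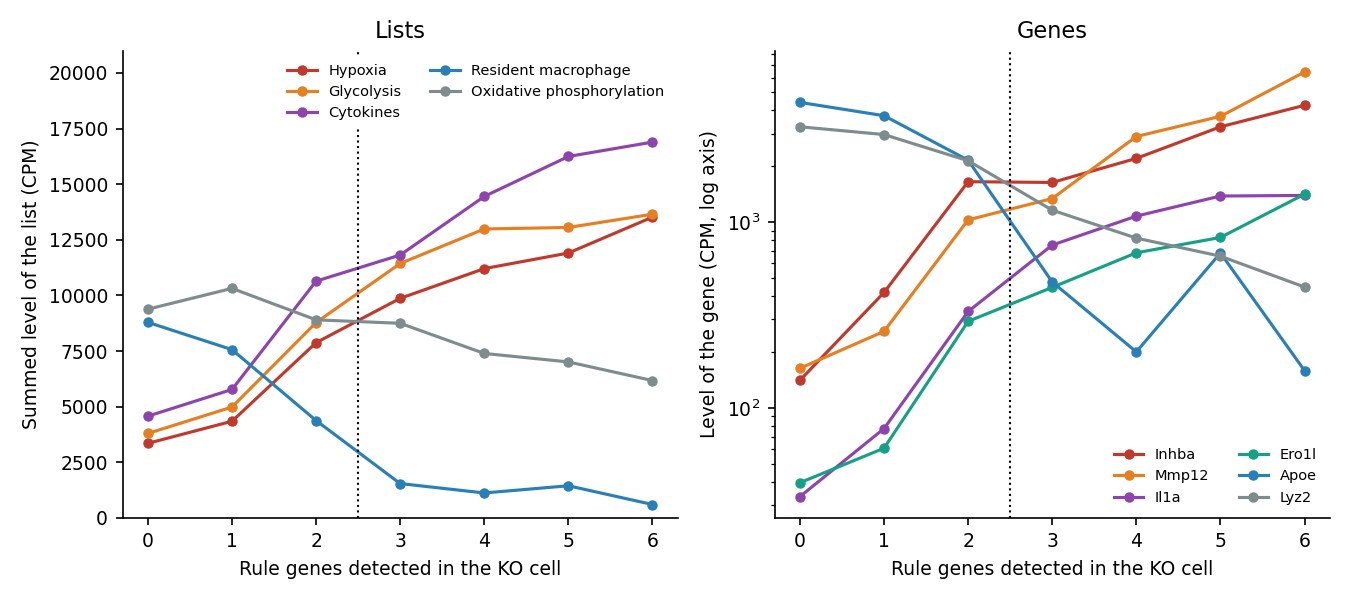
Summed CPM of 5 lists (left, y axis in CPM) and CPM of 6 genes (right, log y axis) in gated KO cells by number of rule genes detected (x axis); the dotted line is the threshold of the rule. The hypoxia list goes from 3349 to 13521 CPM, Inhba from 141 to 4259 CPM and Mmp12 from 163 to 6439 CPM, while Lyz2 goes from 3265 to 448 CPM.

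Detection at equal depth kept the main contrasts. With every cell thinned to 2000 UMIs, 148 members and 1069 other Csf1r+ KO cells remained, with medians of 892 and 936 detected genes. Inhba was then found in 92.6% of members and 18.5% of the other cells, Il1a in 50.7% and 6.08%, Mmp12 in 70.3% and 10.5%, Bnip3 in 57.4% and 7.76%, and Slc7a11 in 83.1% and 26.0%. Apoe was found in 23.0% and 65.5%, and Lyz2 in 74 of 148 members and 89.1% of the other cells.

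Within the group, the cytokine genes varied more between cells than the metabolic lists did. The 53 members with at least 1 UMI of Il6, Il23a, Csf3 or Lif had a cytokine list of 24736 CPM and a chemokine list of 42644 CPM, and the 96 members without had 9491 and 9514 CPM. Cxcl2 was at 30216 CPM (29646 to 30794) in the first and 3696 CPM (3554 to 3843) in the second, and Tnf at 581 and 21.98 CPM, although 42.1% of the members' Tnf UMIs came from 1 cell. The hypoxia list was at 11801 and 11203 CPM in the same cells, the glycolysis list at 12331 and 12904 CPM and the oxidative phosphorylation list at 6789 and 7784 CPM. Rule genes differed too, with Arg1 at 2768 CPM (2598 to 2947) against 2366 CPM (2252 to 2484) and Egln3 at 254 CPM (204 to 312) against 161 CPM (132 to 194). Since the split used cytokines, its cytokine values are a description. Il6 and Il23a were found together in 26 members, and all 36 members with Il6 held Il1a.

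Members also differed in C1q. The 32 with all 3 C1q genes had a resident list of 3745 CPM, the 31 with 1 or 2 had 808 CPM and the 86 with none had 310 CPM. The hypoxia list was at 10089, 11688 and 11895 CPM and Arg1 at 2545, 2206 and 2605 CPM in these sets. The 8 members with Arg1 but no Nos2 had Spp1 at 1541 CPM and Il1a at 74.3 CPM, but so few cells allow no more than a value.

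Clustering of all kept cells with the rule genes left out placed 137 of the 149 members (91.9%) in 1 cluster of 183 KO and 2 DKO cells. Of its 48 cells that were not members, 31 held 2 rule genes, 10 held 1 and 7 held 0. The 12 members outside the cluster had a median of 6894 UMIs. Genes outside the rule therefore grouped the same cells for the most part, in the same libraries that served to propose the rule.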

How the data were processed

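Per the labels, each library held sorted colon cells of 1 genotype. The deposited matrices hold whole-number UMI counts of 31053 genes, not normalized. Per the labels, the authors aligned to mm10 and counted with Cell Ranger 6.0.1. The submitters' processing notes also name Seurat 4.3.0, but no normalized values, imputed values or cell annotation of the study were used here. Each cell barcode is a count column of 1 of the 2 libraries, and their totals after filtering were 12411247 and 3401458 UMIs.

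The study's limits on cells were used (300 to 5000 genes, mitochondrial share of no more than 10%). The rule on 6 genes was then applied, and UMIs were summed over members and over the other Csf1r+ cells. Sums were scaled to 1000000 (CPM), and log2 ratios used 0.5 UMIs added to each sum, for the 9314 genes outside the rule with at least 20 UMIs. A gene was called past 2-fold. With 1 library per genotype there was no test. Intervals (95%) were exact Poisson for levels, exact conditional for ratios and Clopper-Pearson for shares, and a 0 was read as up to 3 UMIs or cells. They cover counting error only, and cells of 1 library are not replicates.

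Named genes were the genes of the rule, the 15 highest and 15 lowest ratios with at least 100 UMIs and presence in at least 10% of the cells of the higher group, from each of 22 lists the extremes and the most abundant genes, and Cers2, Il10ra, Il10rb and Rel; other list genes in the text were chosen after their values were seen. Of the 15 lowest genes, 1 is not reported here. The members and the lists were chosen with earlier results of these data known. Lymphocytes were kept cells with 2 or more T or B cell UMIs and no Csf1r or Cd14. Clusters came from Seurat 5.3.0 (R 4.3.3) with the rule genes left out, and doublet scores from Scrublet in scanpy 1.11.5, which called 9 KO and 0 DKO cells. Doublets were not removed. The computation of ratios was checked on simulated counts with known fold changes, which is no test of these data. Promoter windows were RefSeq, GRCm38.p6. The rule genes, the S100a8 and S100a9 limit, the cell filter, doublets, depth and the comparison cells were varied in turn. So were the limit on UMIs, the prior count and the scaling, with TMM factors from edgeR 4.0.16. The 2-fold limit, the Csf1r and Cd14 gate, the clustering and the promoter search were not varied.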

Additional observations from a re-analysis of the deposited data

How the results depend on the processing

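The number of members was recomputed under 16 other settings and the gene and list counts under 10. No setting but 1 placed a member in the DKO library: with at least 2 rule genes, the rule took 1 DKO cell and 214 KO cells. The other settings gave 108 to 149 KO members. Counts of all genes depended on the filter on low values and on the prior count. With at least 1 UMI in place of 20, 3035 of 14327 genes were at least 2-fold higher and 1875 lower, and with at least 100 UMIs 330 of 5999 were higher and 661 lower. Adding 2 in place of 0.5 UMIs left 820 lower genes. TMM scaling moved every ratio by 0.12 and gave 841 higher and 1125 lower genes, so that higher genes made up 42.8% of the genes past 2-fold in place of 34.1%. That share was 50.3% with 2 UMIs added and 61.8% with at least 1 UMI, where higher genes outnumbered lower ones. Under all 10 settings, 17 to 20 hypoxia genes, 14 to 18 glycolysis genes and 10 to 14 cytokines were higher and 11 to 17 resident genes lower. Lysosome genes fell to 4 lower ones when cells were thinned to 2000 UMIs. The medians of the chemokine, NF-kB, Fc receptor and integrin, cell cycle, dendritic cell marker and T cell marker lists changed sign in at least 1 setting. Of 440 values of single named genes, 395 moved by less than their counting interval. Among named genes past 2-fold, 1 value changed sign. This was S100a8, a gene of the rule, which went from -2.69 to 0.72 with comparison cells under the gates of the members. Those gates remove cells rich in S100a8. Sign changes of named genes within 2-fold were not part of that count. Cers2 (0.34, down to -0.17) changed sign in 1 setting and Il10rb (-0.18, up to 0.35) in 2. The causes of the other changes were not tested. Leaving out the 5% of cells with the highest doublet scores removed 12 of the 149 members (8.05%). No paired analysis was possible because each genotype had 1 library. The number of cells and of UMIs limits genes with few UMIs, and the lack of replicate libraries limits every statement on genotype.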

Other observations

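Most cell cycle genes of the Arg1 Nos2 macrophages lay within 2-fold of their level in the other Csf1r+ KO cells. Mki67, which marks cells in cycle, was detected in 16.1% of members and 17.9% of the other Csf1r+ KO cells (40.5 against 51.0 CPM), and Birc5, a mitotic gene, had 0 UMIs in members and 29 in the other cells. Of 10 tested cell cycle genes, 0 were at least 2-fold higher and 2 at least 2-fold lower, and 0 were lower with genes at 0 UMIs set to 3.

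Genes of acute stress, some of which tissue digestion can induce, were also near their level in the other cells. Of 16 tested, 1 was at least 2-fold higher and 1 lower, with a median log2 ratio of -0.35. Ier3, an early response gene, was at 1584 against 620 CPM, Fos at 419 against 659 CPM, and the heat shock gene Hspa1b at 86.8 against 181 CPM.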
